A study of Homo sapiens with 9 samples.

Results

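ATP-binding cassette (ABC) transporters were followed across 9 RNA-seq libraries of Z138, an established line of mantle cell lymphoma, a B cell cancer. Members were the genes of the deposited table whose symbol is ABC followed by a subfamily letter from A to G and a number. There were 41 of them among 16586 genes. The libraries formed 3 groups of 3: wild-type Z138 (genotype WT), SOX11 knockout cells (SOX11KO) and knockout cells to which SOX11 had been returned (SOX11KO+SOX11Rescue), here called the rescue. Cells of the 3 groups were grown in one medium with no drug or other agent named. Each replicate number is also a batch in the labels, and each batch holds 1 library of each group. How the knockout was made, whether knockout and rescue are single clones, what drives the returned SOX11 and whether replicates were separate cultures are not given in the sources used here. The p-values thus reflect spread among these libraries alone, which may be technical, and clonal differences cannot be told apart from those of SOX11.

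ABC proteins bind and hydrolyse ATP at paired nucleotide-binding domains and use it to move a substrate through a bundle of membrane helices. Subfamilies A and G mainly carry sterols and phospholipids, subfamilies B and C hold the exporters of drugs, peptides and organic anions along with transporters of mitochondria and lysosomes, and subfamily D serves peroxisomes and lysosomes. Members of subfamilies E and F have no membrane part and act on ribosomes. In blood cancers the family is best known for drug efflux by ABCB1, ABCC1, ABCC4 and ABCG2.

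SOX11, the transcription factor that was targeted, had normalized counts of 3549 ± 474 for wild type, 1033 ± 262 for the knockout and 13127 ± 627 for the rescue (SD, n = 3). A two-sided exact permutation test gave p = 0.1 for every pair of groups, and 3 against 3 cannot go lower. The knockout libraries thus kept 29.1% of the wild-type SOX11 transcript, and SOX11 protein was not analysed here. Normalized counts are reads scaled between libraries, recovered from the deposited log2 values, and all means below are ± SD with n = 3. Each library was estimated to hold between 30813000 and 40750200 reads. The 7 B cell and mantle cell lymphoma markers, among them CCND1, MS4A1 and CD79A, were all present and summed to 169790.0 to 189602 (wild type), 161445 to 175668 (knockout) and 152464 to 159673 (rescue). The 7 T and NK cell markers in the table summed to 393 to 513 (wild type), 618 to 754 (knockout) and 537 to 577 (rescue). Of the 4 tested, CD3E and NKG7 were called higher in the knockout than in wild type, and CD3E in the rescue as well. The 3 not tested had mean counts of 3.51, 2.24 and 3.48 for CD3D, 11.6, 1.49 and 4.19 for CD8A and 2.67, 1.03 and 1.81 for GNLY in wild type, knockout and rescue, each lowest in the knockout. The 4 myeloid markers in the table summed to 15.6 to 22.6 (wild type), 44 to 47.9 (knockout) and 44.6 to 56.5 (rescue), and none of them was tested. CD14 averaged 0.649, 1.14 and 1.18, so nearly all of each sum came from the markers not named here. The 6 markers of stroma and epithelium in the table summed to 1232 to 1561 (wild type), 1444 to 1756 (knockout) and 945 to 1119.9 (rescue), and of the 3 tested COL1A1 and PECAM1 passed, both lower in the rescue than in the knockout and PECAM1 higher in the knockout than in wild type. Some of these ranges overlap between groups, such as those of the B cell markers in wild type and knockout, and others do not, such as those of the T and NK cell markers. The sums were not compared by a test, and their part in the results below was not tested.

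In wild-type cells the soluble members were among the most abundant ABC transcripts. Per kilobase of the longest annotated transcript, ABCE1, which splits ribosomes after termination, stood at 2507 ± 79.2 normalized counts and ABCF2 at 1116 ± 76.9. ABCF1, a factor of translation initiation, had 542 ± 217 and ABCD3, the peroxisomal carrier of branched fatty acids and bile acid precursors, 508 ± 17.2. ABCE1 and ABCF2 differed from each other and from these by more than their SDs, whereas ABCF1 and ABCD3 lay within 1 SD of ABCF1 and their order is not resolved. The order below ABCE1 and ABCF2 also depends on the length used. Per kilobase of all annotated exons joined, ABCF1 stood at 417 ± 167, ABCB10 at 361 ± 69 and ABCD3 at 292 ± 9.88. The whole family took 0.0971 to 0.0997% of normalized counts in wild-type libraries, 0.104 to 0.106% in knockout libraries and 0.0943 to 0.1001% in rescue libraries, and ABCE1 alone supplied 25.7 to 29.99% of the family's counts.

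**Figure D1:**
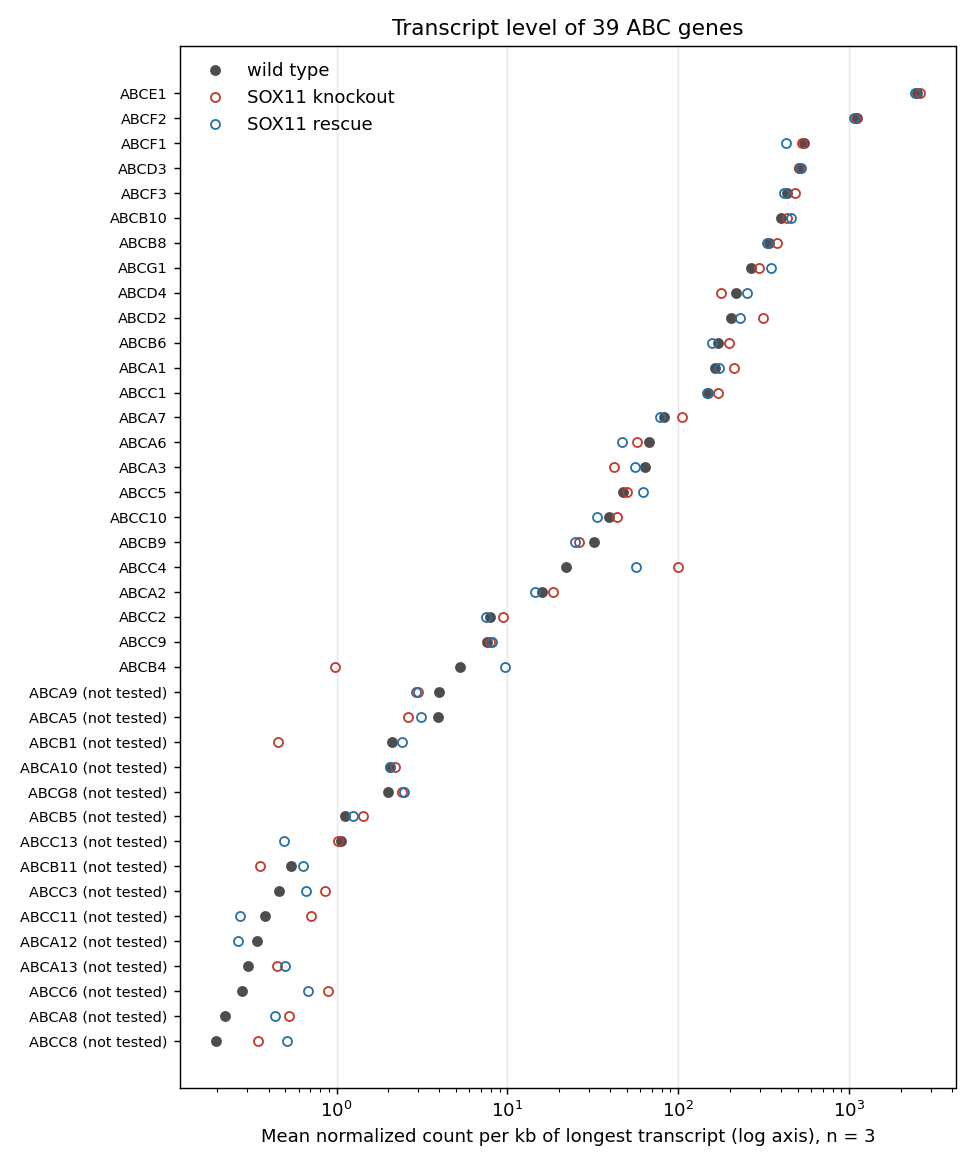
Mean normalized count per kilobase of the longest annotated transcript (log axis, n = 3 libraries per group) for 39 ABC genes, ordered by the wild-type level. ABCE1 is highest, ABCC4 in the knockout lies to the right of its wild-type point, ABCB4 and ABCB1 in the knockout lie to the left, and ABCA12 has no knockout point because its count was 0 there.

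Among the classical drug exporters ABCC1, which also exports glutathione conjugates and leukotriene C4, was the highest in wild type, at 150.2 ± 3.25 normalized counts per kilobase. ABCC4 stood at 22 ± 5.92 and ABCB1, also called P-glycoprotein, at 2.11 ± 1.11. ABCG2 was not among the 41 members in the deposited table, so nothing can be said of it. A gene was tested when it reached 1 CPM, a count scaled to the library total, in at least 3 libraries, and 26 of the 41 members did. ABCB4 passed through the 3 rescue libraries alone and ABCC2 through 7 libraries, while the other 24 passed in all 9. The 15 members not tested averaged 1.83 to 26.4 normalized counts over the 9 libraries.

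In the planned fit, which leaves out the batch, few members of the family passed, and their share was close to that of all genes. Between knockout and wild type 2 of 26 tested members rose (ABCC4 and ABCD2) and 2 fell (ABCA3 and ABCB4), or 15.4% against 12.7% of the 11542 genes tested (5.36% higher and 7.37% lower; limma, adjusted p below 0.05). Between rescue and knockout 2 rose (ABCB4 and ABCD4) and 3 fell (ABCC4 and ABCD2 among them), or 19.2% against 22.1% (11.5% higher and 10.7% lower). ABCB4 was tested only through its rescue libraries, so its rise there was fixed by the filter, and ABCD4 is the one riser that was free to move either way. Between rescue and wild type ABCC4 rose and 0 fell, or 3.85% against 4.07% (2.3% higher and 1.78% lower), with 2 members lower at an unadjusted p under 0.05. The share of all genes under that unadjusted cutoff is not given. Such counts, here and below, therefore have no background to be read against. The 3 comparisons share libraries, so their values stand side by side and are not separate evidence. ABCC4, ABCD2 and ABCB4 passed in the knockout and, with the sign turned, in the rescue, 3 of 26 members beside 9.7% of all genes. For ABCB4 the second of these directions was fixed by the filter, which leaves ABCC4 and ABCD2. The median signed difference over tested members was 0.04 for the knockout and -0.10 for the rescue against the knockout. For the rescue against wild type it was -0.03, all on the deposited log2 scale. Over all genes tested these medians were 0.0048, -0.0065 and -3.17e-05. A signed median reflects the balance of directions and not the size of differences. Of the 26 members 18 were positive and 8 negative for the knockout. For the rescue against the knockout 8 were positive and 18 negative, and against wild type 10 and 16.

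When the batch was added to the fit as a replicate block, which pairs libraries of one batch, more members passed. Of the 26, 7 then passed between knockout and wild type, with ABCA1 and ABCA7 added as higher and ABCD4 as lower, beside 21.5% of all genes. Between rescue and knockout 10 passed, with ABCA3 and ABCC5 added as higher and ABCA1, ABCA7 and ABCB8 as lower, beside 31.2%. Between rescue and wild type 4 passed, with ABCG1 added as higher and 2 as lower, ABCA6 among them, beside 8.06%. With the block 7 members were reversed, beside 16.2% of all genes. The counts also depended on single libraries. Members lower in the knockout numbered 0 without knockout replicate 1, and 1 without wild-type replicate 1, knockout replicate 2 or knockout replicate 3. Members lower in the rescue against the knockout numbered 1 without knockout replicate 1 or rescue replicate 2. Members higher in the rescue than in wild type numbered 2 without rescue replicate 1, which added ABCG1, and reversed members numbered 1 without knockout replicate 1.

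**Figure D2:**
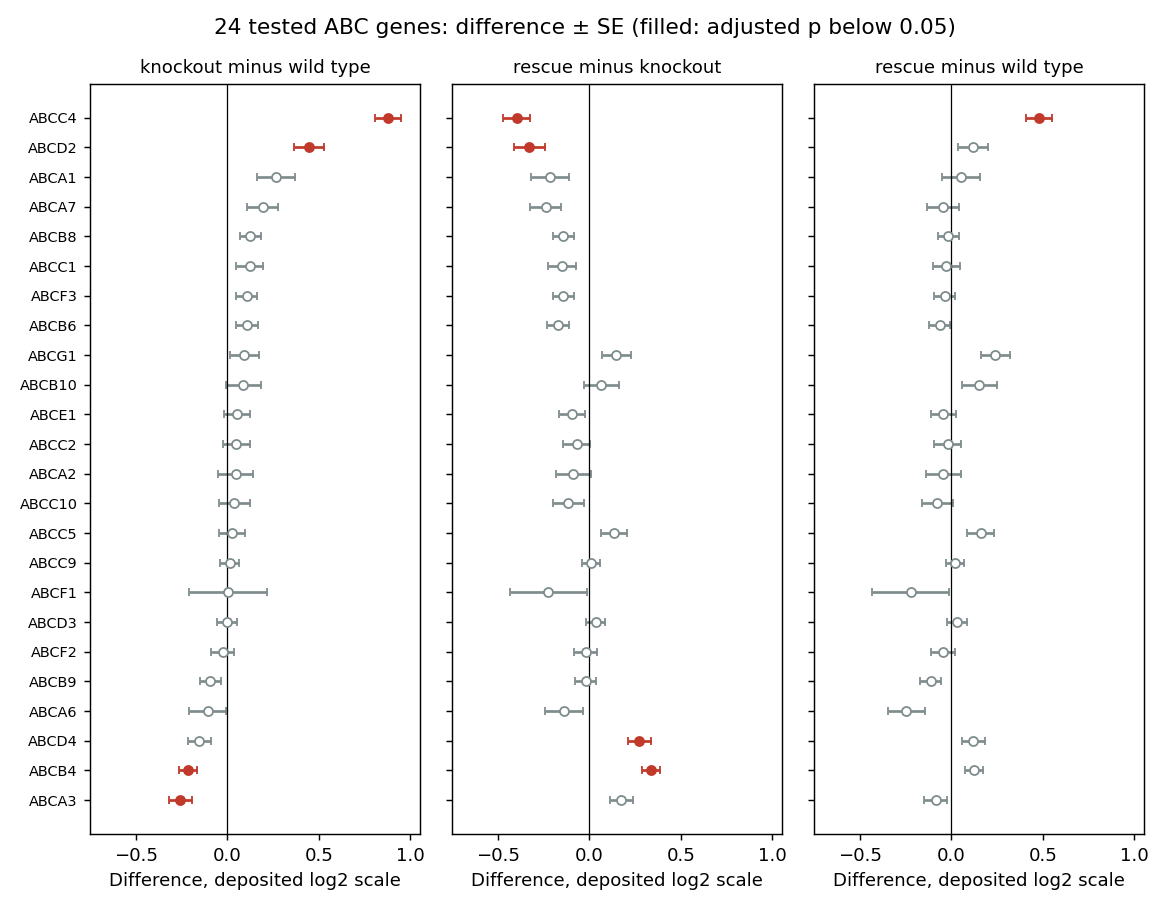
Difference ± SE on the deposited log2 scale for 24 tested ABC genes in the 3 comparisons, ordered by the knockout difference. Filled red points passed the adjusted threshold in the fit without the replicate block: 4 for knockout minus wild type, 4 for rescue minus knockout, and ABCC4 for rescue minus wild type.

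Among the exporters of drugs and organic anions ABCC4 alone of 5 tested members passed in the fit without the block, in each of the 3 comparisons, beside 12.7%, 22.1% and 4.07% of all genes. ABCC4 (ENSG00000125257.16, chromosome 13, 95019829 to 95301475, minus strand, GRCh38) encodes an exporter of cyclic nucleotides, prostaglandins and nucleotide analogue drugs. Its normalized counts were 135, 99.3 and 172 for wild type, 626, 637 and 582 for the knockout and 288, 417 and 338 for the rescue. The groups did not overlap, with wild type lowest, the knockout highest and the rescue between them. ABCC4 rose 4.53-fold in the knockout, from 136 ± 36.5 to 615 ± 29.2, a log2 difference of 0.88 (SE 0.0715, limma adjusted p = 1.48e-05). That difference ranked 11 from the top among 11542 genes. The log2 differences are on the variance-stabilized scale of the file, which compresses low counts, so folds come from mean normalized counts. In bulk RNA, a change in the share of cells that carry a transcript and a change in transcript per cell cannot be told apart.

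In the rescue ABCC4 was lower than in the knockout and still above wild type. The rescue held 347 ± 64.8 normalized counts, 1.77-fold below the knockout (log2 difference -0.40, SE 0.0715, limma adjusted p = 0.0023) and 2.56-fold above wild type (log2 difference 0.48, limma adjusted p = 0.00311). Measured on mean counts, 55.8% of the knockout rise was undone. SOX11 itself stood above wild type in the rescue, so the order of the groups by ABCC4 is not the reverse of their order by SOX11. Within batches 1, 2 and 3 the ratio of knockout to wild type was 4.62, 6.41 and 3.37, and that of rescue to knockout was 0.46, 0.654 and 0.58. The knockout rise kept its call in all 21 alternatives run (adjusted p from 1.02e-05 to 0.00255). The fall in the rescue missed the threshold without batch 1 (adjusted p = 0.0588, with a range of 0.0014 to 0.0588 over the alternatives). The excess over wild type missed it without batch 3 (adjusted p = 0.0553, with a range of 0.0026 to 0.0553 over the alternatives).

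**Figure D3:**
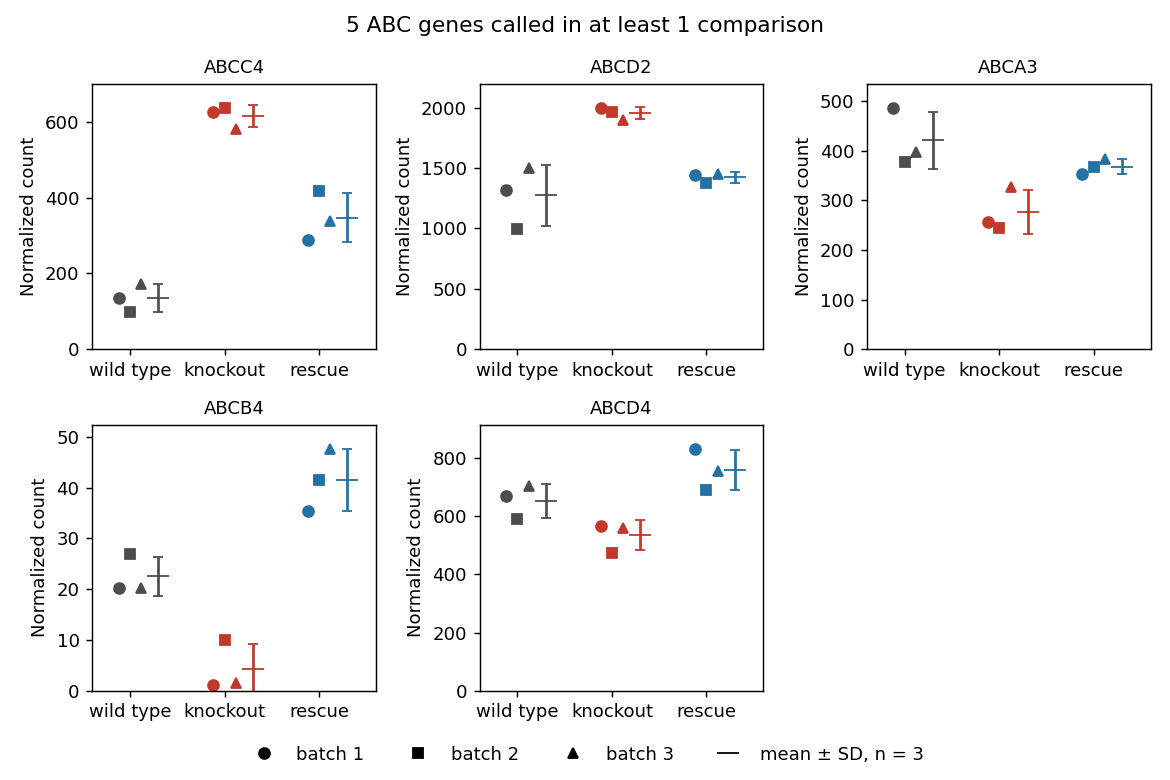
Normalized count per library (linear axes from 0) for 5 ABC genes called in at least 1 comparison, with the batch shown by the marker and mean ± SD (n = 3) beside each group. The ABCC4 groups are separate, with wild type at 99.3 to 172, the rescue at 288 to 417 and the knockout at 582 to 637.

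The window around the RefSeq start of ABCC4 is shown because this member had the largest difference from wild type on the deposited log2 scale among the 26 tested and because a SOX factor was varied. It holds 250 bases before and 50 after the start (chr13:95301402-95301701, minus strand, GRCh38.p14), written 5′ to 3′ along the gene, and 79.7% of it is G or C, more than in 97.1% of all such windows. SOX-type words were searched on both strands: AACAAT, the longer word AACAAAG, and its shorter form ACAAAG, so that a match to the longer word counts under both. No letters are in capitals here since none of the words occurs in it.
ABCC4: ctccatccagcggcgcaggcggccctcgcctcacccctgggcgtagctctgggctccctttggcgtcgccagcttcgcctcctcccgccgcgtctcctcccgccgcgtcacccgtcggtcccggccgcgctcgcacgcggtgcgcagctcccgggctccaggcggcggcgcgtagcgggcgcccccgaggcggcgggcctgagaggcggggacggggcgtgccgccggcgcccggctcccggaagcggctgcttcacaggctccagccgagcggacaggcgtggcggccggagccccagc
A window without the words says only that these letters are not in it.

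The other exporters tested did not pass in the fit without the block. ABCC1 had normalized counts of 990.1 ± 21.4 (wild type), 1132 ± 127 (knockout) and 965 ± 151 (rescue). ABCC5, an exporter of cyclic nucleotides and other organic anions, stood at 283 ± 38.7 (wild type), 295 ± 49.8 (knockout) and 369.7 ± 68.6 (rescue), and its rescue against knockout difference passed only with the block (adjusted p = 0.0472, with a range of 0.0472 to 0.581 over the alternatives). ABCC10, a broad drug exporter, averaged 201 ± 25.1 in wild type and ABCC2, the exporter of bilirubin conjugates in liver, 45.6 ± 15.9, and both overlapped between the groups. ABCC9, the SUR2 subunit of ATP-sensitive potassium channels, had 63.1 ± 12.2 (wild type), 65.6 ± 10.2 (knockout) and 67.8 ± 15.8 (rescue).

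Of the peroxisomal transporters, ABCD2 rose in the knockout. ABCD2 (ENSG00000173208.4, chromosome 12, 39550033 to 39619751, minus strand) carries very long chain fatty acids into peroxisomes for oxidation. Its normalized counts were 1322, 999 and 1500.3 for wild type, 1998, 1964 and 1898 for the knockout and 1445, 1373 and 1454 for the rescue. The 3 knockout libraries lay above all the others, and wild type and rescue overlapped. ABCD2 rose 1.53-fold (log2 difference 0.45, SE 0.0828, limma adjusted p = 0.00421) and fell 1.37-fold in the rescue against the knockout (log2 difference -0.33, SE 0.0828, limma adjusted p = 0.0157). The rescue lay 1.12-fold above wild type, which did not pass (adjusted p = 0.53). The knockout call was lost without batch 1 (adjusted p = 0.0764, with a range of 0.00136 to 0.0764 over the alternatives), and the fall in the rescue without knockout replicate 1, rescue replicate 2, batch 1 or batch 3.

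RefSeq gives ABCD2 windows at a pair of start sites, shown because this gene moved with ABCC4 while the windows differ in base composition. The upstream one (chr12:39619754-39620053, minus strand, GRCh38.p14) holds none of the SOX-type words. The downstream one (chr12:39605458-39605757, minus strand) lies inside the gene and holds ACAAAG once on the opposite strand, in capitals, beginning 83 bases before the start.
ABCD2, upstream start: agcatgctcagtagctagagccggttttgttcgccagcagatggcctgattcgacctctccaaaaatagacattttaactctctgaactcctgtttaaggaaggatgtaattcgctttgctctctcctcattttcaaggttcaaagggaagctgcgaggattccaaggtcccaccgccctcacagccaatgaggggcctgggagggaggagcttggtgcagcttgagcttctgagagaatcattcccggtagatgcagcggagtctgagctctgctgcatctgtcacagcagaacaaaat
ABCD2, downstream start: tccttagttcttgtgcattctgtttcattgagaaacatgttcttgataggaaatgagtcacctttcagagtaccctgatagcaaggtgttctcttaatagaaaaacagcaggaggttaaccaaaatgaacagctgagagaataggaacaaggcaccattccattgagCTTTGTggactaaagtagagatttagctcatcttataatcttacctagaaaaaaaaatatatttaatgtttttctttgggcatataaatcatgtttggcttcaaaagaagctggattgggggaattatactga
G and C make up 50.7% of the upstream and 35.3% of the downstream window, against a median of 58.7% over all 35116 windows. Across the family ACAAAG occurred for 7 of 31 members with a window, on either strand and at any of their starts, and in 16.1% of all windows. AACAAT occurred for 2 members and in 10.1% of windows, and AACAAAG for 2 and in 5.2%. Some members have more than 1 window, so the shares of members and of windows are not on one footing. A match is a description of letters and not of binding. No window was found for ABCB4.

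ABCD3 had normalized counts of 2219.7 ± 75 (wild type), 2215 ± 128 (knockout) and 2282 ± 97.8 (rescue) and passed in no comparison.

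Among the 7 tested carriers of sterols and lipids 2 fell in the knockout and 0 rose in the fit without the block, beside 7.37% of all genes lower and 5.36% higher, while ABCA1 and ABCA7 were higher at an unadjusted p under 0.05. ABCA3 (ENSG00000167972.14, chromosome 16, 2275881 to 2340746, minus strand), which loads phospholipid into the lamellar bodies of lung surfactant cells, had normalized counts of 486, 378 and 398 for wild type, 256, 245 and 328 for the knockout and 353, 367 and 383 for the rescue. Every knockout library lay below every library of the other groups, which overlapped. It fell 1.52-fold (log2 difference -0.26, SE 0.0626, limma adjusted p = 0.0199). In the rescue it was 1.33-fold above the knockout, a difference that did not pass in the planned fit (limma adjusted p = 0.0713). It passed once the replicate block was added (adjusted p = 0.0468, with a range of 0.0406 to 0.225 over the alternatives) or knockout replicate 3 was left out (adjusted p = 0.0406). The knockout call was lost without wild-type replicate 1, knockout replicate 1 or 2, or any 1 batch.

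The ABCA3 window (chr16:2340679-2340978, minus strand, GRCh38.p14) is set beside those above because this gene moved the other way. It is 78% G or C, close to that of ABCC4, and none of the SOX-type words occurs in it, so it has no capitals.
ABCA3: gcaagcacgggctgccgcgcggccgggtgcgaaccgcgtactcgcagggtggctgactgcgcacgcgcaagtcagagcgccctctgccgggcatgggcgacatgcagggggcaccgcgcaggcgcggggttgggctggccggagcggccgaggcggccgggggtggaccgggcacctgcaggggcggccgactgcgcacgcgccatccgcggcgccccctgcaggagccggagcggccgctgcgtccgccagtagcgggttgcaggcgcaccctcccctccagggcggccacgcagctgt
The GC box word GGGCGG, searched on both strands, occurs at 2 places in the ABCA3 window, at 0 in that of ABCC4, and in 45% of all windows.

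ABCB4 (ENSG00000005471.18, chromosome 7, 87401697 to 87480435, minus strand), the phosphatidylcholine translocator of bile formation, was low in every library. Its normalized counts were 20.3, 26.9 and 20.3 for wild type, 1.07, 10.0 and 1.5 for the knockout and 35.5, 41.6 and 47.6 for the rescue. The groups did not overlap, with the knockout lowest and the rescue highest. Because it passed the filter only through the rescue libraries, its difference from the rescue was bound to be positive, and 2 of the knockout libraries hold about 1 read each. It fell in the knockout by 0.21 on the deposited log2 scale (SE 0.0492, limma adjusted p = 0.0152). The rise in the rescue against the knockout was 0.34 (SE 0.0492), a call whose direction the filter fixed. On estimated reads summed per group, 70 against 12, wild type exceeded the knockout by a ratio of 5.57 (95% exact interval 2.99 to 11.28, counting error only). Knockout replicate 2 held about 9.5 of those 12 reads. The rescue held 123 reads. Within batches 1, 2 and 3 the ratio of rescue to knockout normalized counts was 33.1, 4.15 and 31.7. The fall in the knockout was lost without knockout replicate 1 or 3 or without batch 1 or 3. Under the stricter filter of 4 CPM it was not tested.

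Its neighbour ABCB1 lies 23.2 kb away on the same strand of chromosome 7 (ABCB1 at 87503633 to 87713323) and was too low for the filter. ABCB1 had normalized counts of 14.6, 4.21 and 11.5 for wild type, 0.376, 3.99 and 2.15 for the knockout and 6.02, 14 and 14.7 for the rescue. Summed reads were 32 for wild type, 6 for the knockout and 34 for the rescue, and the wild type to knockout ratio was 5.09 (95% exact interval 2.1 to 14.9, counting error only). When every gene was tested, ABCB1 did not pass between knockout and wild type (limma adjusted p = 0.132) or between rescue and knockout (adjusted p = 0.057). The knockout held the lowest ABCB1 values, although the margin to wild-type replicate 2 was only 3.99 against 4.21.

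ABCA1, which hands cholesterol and phospholipid to apolipoprotein A-I, had normalized counts of 1746, 1845 and 1571 for wild type, 2081, 2697 and 1886 for the knockout and 1594, 2110.0 and 1737 for the rescue. Wild type and knockout did not overlap, but the knockout spread was wide, from 1886 to 2697. ABCA1 was 1.29-fold higher in the knockout, which did not pass in the planned fit (limma adjusted p = 0.121) and did with the replicate block (adjusted p = 0.0106, with a range of 0.0106 to 0.339 over the alternatives). ABCA7, a phospholipid transporter of myeloid and brain cells, averaged 561 ± 47.7 (wild type), 721 ± 90.02 (knockout) and 532 ± 121 (rescue). Its 1.28-fold difference in the knockout passed only with the block (adjusted p = 0.0319, with a range of 0.0319 to 0.426 over the alternatives, against 0.174 in the planned fit). Its lower level in the rescue than in the knockout passed with the block, with median centring and without rescue replicate 3.

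ABCG1, which moves cholesterol to high-density lipoprotein, averaged 929 ± 44.7 (wild type), 1032 ± 120.2 (knockout) and 1211 ± 186 (rescue). The rescue against wild type difference did not pass (limma adjusted p = 0.147) unless the replicate block was added (adjusted p = 0.026, with a range of 0.026 to 0.57 over the alternatives) or rescue replicate 1 was left out. ABCA6, a member of a gene cluster on chromosome 17, averaged 552 ± 141 (wild type), 469 ± 61.8 (knockout) and 384 ± 90.9 (rescue) and passed only with the block, lower in the rescue than in wild type (adjusted p = 0.0167, with a range of 0.0167 to 0.628 over the alternatives). ABCA2, a lysosomal lipid transporter, had 129.9 ± 1.65 in wild type and overlapped between the groups, with knockout replicate 3 high at 244.

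ABCD4 (ENSG00000119688.21, chromosome 14, 74285423 to 74303056, minus strand), which helps release cobalamin from lysosomes, had normalized counts of 669, 589.6 and 703 for wild type, 568, 475 and 560.1 for the knockout and 831, 691 and 755 for the rescue. The knockout libraries were lowest, and wild type and rescue overlapped. ABCD4 rose 1.42-fold in the rescue against the knockout (log2 difference 0.27, SE 0.0629, limma adjusted p = 0.00974), a call lost without batch 1 or batch 3. Its 1.22-fold lower level in the knockout than in wild type passed only with the replicate block (adjusted p = 0.0395, with a range of 0.0395 to 0.428 over the alternatives, against 0.144 in the planned fit). ABCB9, a lysosomal peptide transporter, averaged 194 ± 23 (wild type), 159 ± 30.7 (knockout) and 150.4 ± 12.8 (rescue) and did not pass. Its exons overlap those of ARL6IP4 and OGFOD2 on the opposite strand, and the library kit is not known for each sample, so its reads cannot be assigned with certainty. Other tested members share this limit. On the same strand ABCD4 exons share 624 bases with AC005519.1, ABCB6 exons 2864 with AC068946.2 and ABCF2 exons 1914 with AC021097.2. Exons of ABCE1, ABCB8, ABCC9 and ABCC10 overlap those of genes on the opposite strand.

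**Figure D4:**
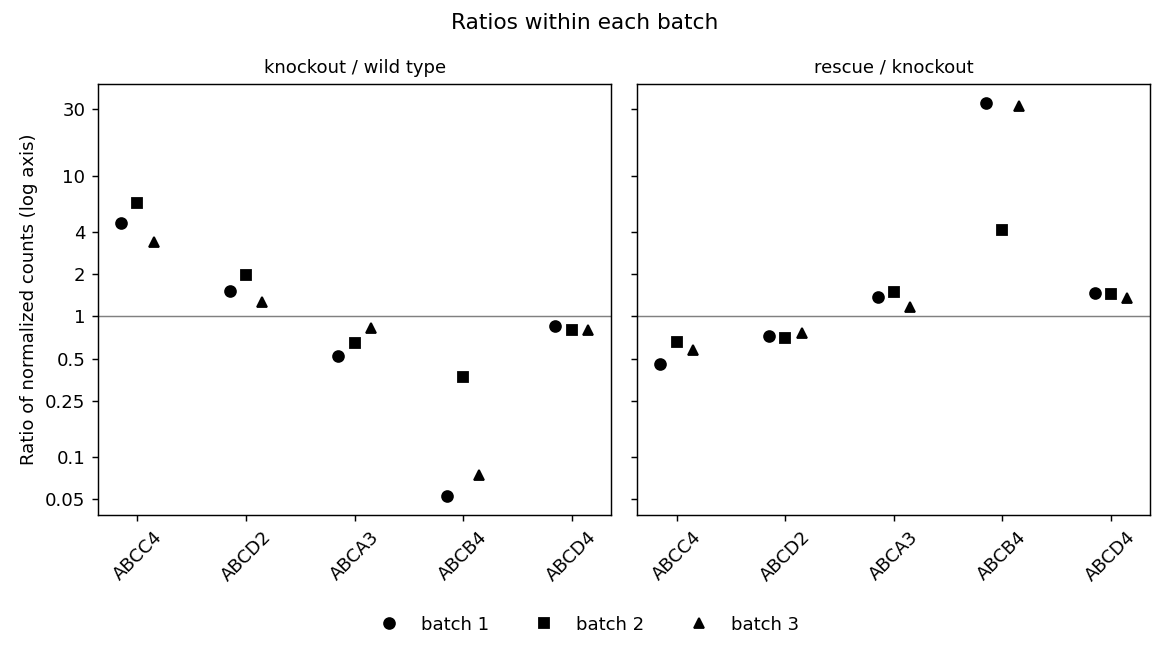
Ratio of normalized counts within each batch (log axis, 1 library per group and batch) for 5 ABC genes called in at least 1 comparison, as knockout over wild type and rescue over knockout. ABCC4 lies at 3.37 to 6.41 and then 0.46 to 0.654, and the ABCB4 ratios scatter most, with about 1 read in 2 of its knockout libraries.

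ABCB6, ABCB8 and ABCB10, transporters of the mitochondrion, passed in no comparison in the fit without the block (0 called by limma, with 2 lower in the rescue against the knockout at an unadjusted p under 0.05). ABCB8 had 1581 ± 120.0 (wild type), 1782 ± 91.6 (knockout) and 1554 ± 97.3 (rescue), and its rescue against knockout difference passed with the block (adjusted p = 0.0278, with a range of 0.0278 to 0.349 over the alternatives). ABCB6, a porphyrin transporter, had 522 ± 21 (wild type), 603 ± 75.5 (knockout) and 477 ± 35 (rescue), and its lower level in the rescue than in the knockout passed with median centring. ABCB10, which acts in haem synthesis, had 1537 ± 294 (wild type), 1660.3 ± 144 (knockout) and 1768 ± 159.6 (rescue). Fold differences between group means in these 3 genes stayed between 1.27-fold lower and 1.16-fold higher across the first 2 comparisons.

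The 4 soluble members also passed in no comparison (0 called by limma, with 1 lower in the rescue against the knockout at an unadjusted p under 0.05). ABCE1 had normalized counts of 9676, 10189 and 9629.8 for wild type, 10543, 10577 and 9565 for the knockout and 10224, 9995 and 8414 for the rescue. Those of ABCF2 were 4007, 3664 and 4202 for wild type, 3784, 3987 and 3837 for the knockout and 4170.4, 3775 and 3485 for the rescue, and those of ABCF3 averaged 1227 ± 72.5 (wild type), 1369 ± 96.5 (knockout) and 1180.3 ± 63.3 (rescue). ABCF1 varied most within groups, with 1869, 2654 and 1141 for wild type, 1415, 1782 and 2321 for the knockout and 1306, 2030.0 and 1137 for the rescue. Its SE of 0.212 on the log2 scale was the largest of the 26 tested members. The counts of ABCD3 were 2305, 2166 and 2188 for wild type, 2282, 2296 and 2068 for the knockout and 2332, 2345 and 2169.6 for the rescue.

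Between batches 2 of 26 members differed, ABCA6 and ABCA1 (7.69%, beside 6.74% of all genes; limma F test with group in the fit). Mean normalized counts in batches 1, 2 and 3 were 368, 562 and 474 for ABCA6 (adjusted p = 0.0254) and 1807, 2217 and 1732 for ABCA1 (adjusted p = 0.0483). Both were highest in batch 2.

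Several members are neighbours in the genome. ABCA8, ABCA9, ABCA6, ABCA10 and ABCA5 lie in a row on the minus strand of chromosome 17 (68867292 to 69327244, GRCh38), and ABCA6 alone of the 5 passed the filter. Per kilobase in wild type ABCA6 stood at 67.4 ± 17.2 normalized counts, ABCA9 at 3.996 ± 2.07, ABCA5 at 3.91 ± 2.13, ABCA10 at 2.06 ± 1.053 and ABCA8 at 0.223 ± 0.157. ABCC1 and ABCC6 lie 5.85 kb apart on chromosome 16, on opposite strands, and ABCC6 stood at 0.281 ± 0.301 per kilobase. ABCC6 has near-identical pseudogene copies, so its low counts are uncertain.

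Of the 15 members left untested, 6 were at 0 in at least 1 library. ABCA12, a lipid transporter of skin, was at 0 in the 3 knockout libraries, with 3.62, 3.32 and 2.34 for wild type and 2.2, 3.86 and 1.13 in the rescue, about the limit of 3 reads that a count of 0 allows. It passed when every gene was tested (limma adjusted p = 0.0287 for the knockout and 0.0388 for the rescue against the knockout), but at this depth no fold can be given. ABCG8, a sterol exporter of liver and gut, had 14.4 ± 0.889 (wild type), 17.4 ± 3.15 (knockout) and 17.9 ± 4.3 (rescue). ABCB5, ABCB11, ABCC3, ABCC8, ABCC11, ABCA13, ABCC6 and the pseudogene ABCC13 had single-library counts from 0 to 14.1.

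The ABC proteins TAP1 and TAP2 carry other symbols and so fall outside the rule. They form the peptide pump of MHC class I loading. Both were called higher in the knockout and lower in the rescue against it: mean normalized counts in wild type, knockout and rescue were 1369, 2059.7 and 1209 for TAP1 (limma adjusted p = 0.00258 and 0.000324) and 115, 210.5 and 96.5 for TAP2 (adjusted p = 0.0299 and 0.00716). CFTR, the chloride channel of the family, averaged 24.7, 34.2 and 17.7 with wide spread and was not tested.

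Genes that make, sense or share the substrates of these transporters were counted in lists, here and in the next paragraph. In the fit without the block 12.7%, 22.1% and 4.07% of all genes were called in the 3 comparisons. With the replicate block these shares were 21.5%, 31.2% and 8.06%, and the block counts of each list stand beside those. Of 13 tested genes of cyclic AMP production and breakdown, the pathway whose messenger ABCC4 exports, 2 fell in the knockout and 0 rose. In the rescue against the knockout 3 rose and 1 fell, and against wild type 1 rose and 1 fell. With the replicate block 4 fell in the knockout, and 5 rose and 4 fell in the rescue against it. PRKAR2B, a regulatory subunit of protein kinase A, had mean normalized counts of 60.9, 11.5 and 121 in wild type, knockout and rescue (limma adjusted p = 0.00135 for the knockout and 2.06e-05 for the rescue against it). ADCY3, an adenylyl cyclase, had 546, 282 and 312, lower than wild type in the knockout (adjusted p = 0.00981) and in the rescue (adjusted p = 0.0476). PDE3B, a phosphodiesterase, rose in the rescue against the knockout, with 3803, 3245 and 3981, and ADCY7 fell, with 1648, 1781 and 1436. Of the 5 tested genes of prostaglandin and leukotriene synthesis ALOX5AP alone passed, higher in the knockout and lower in the rescue against it, with 1245, 1697 and 1249. Among 4 tested PDZ scaffolds, proteins that anchor ABCC members, SLC9A3R2 fell in the knockout and was lower than wild type in the rescue as well, with 235, 72.2 and 96.7. With the block 1 further scaffold was called higher in each of the 3 comparisons, not the same one throughout.

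Of 11 tested genes of sterol sensing and efflux 2 rose in the knockout and 2 fell in the rescue against it (4 and 3 with the block, which also called 1 higher in the rescue). MYLIP, a ubiquitin ligase induced by sterols, passed in both, with mean counts of 769.8, 1070.5 and 796 in wild type, knockout and rescue. Of 9 tested xenobiotic and redox genes GSTP1, a glutathione transferase, rose in the knockout and fell in the rescue against it, with 33098, 37677 and 31971. Of 12 tested partners in mitochondrial haem and iron-sulphur synthesis 1 rose in the knockout and 5 fell in the rescue against it (3 and 6 with the block). The list's median log2 differences were 0.09 and -0.12, beside 0.0048 and -0.0065 over all genes. SLC25A37, the mitochondrial iron importer, fell in the rescue to 1199 from 1531. Of 8 tested genes of ribosome recycling and the GCN2 pathway EIF2S2 rose in the knockout, and EIF2S2 and EIF2S1 fell in the rescue against it (3 and 6 with the block). EIF2S2, a subunit of the initiation factor that GCN2 phosphorylates, had 8074, 9374 and 8009.8. Of 10 tested genes of peroxisome import and fatty acid oxidation 0 were called by limma in any comparison without the block. At an unadjusted p under 0.05, 2 were higher in the knockout and 2 lower in the rescue against it. No share of all genes at that cutoff is given to set beside them. With the block 2 were called lower in the rescue against the knockout. Of 5 tested cobalamin partners MTRR fell in the rescue against the knockout, with 1028, 1235 and 1024 (with the block 2 rose in the knockout and 2 fell in the rescue). The 1 tested potassium channel partner did not pass in any comparison.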

How the data were processed

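RNA of Z138 cells was sequenced in 9 libraries. Per the labels' protocols, libraries were made with a TruSeq RNA or a stranded total RNA kit and read as paired or single ends, without saying which library had which. The submitters' processing notes name kallisto 0.46.1 and DESeq2 1.24.0 beside FastQC 0.11.9, Trimmomatic 0.40 and R 4.3.2, and the build GRCh38.p13. The authors deposited 1 table of log2 values for 16586 genes. All 9 libraries share the lowest value, 8.6, which is the form of a variance-stabilizing transform. Its closed form was inverted with 2 to that value (388) as constant to give normalized counts. The worth of 1 read was 0.858 to 1.13 normalized counts: 86.4 to 98.7% of low values of single-transcript genes lay within 0.05 of a whole multiple. In each library the worth was chosen to make this share largest. The 10% that would be met by chance holds for a worth fixed beforehand and is not a fair comparison. The estimated depth follows from the chosen worth and covers counting error only.

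Genes with at least 1 CPM in at least 3 libraries were tested. limma 3.58.1 (R 4.3.3) was fitted to the deposited values, with 1 coefficient for each group, all 9 libraries and trend=TRUE, and with Benjamini-Hochberg adjustment over 11542 genes and a threshold of 0.05. The fit was run on simulated counts with the same dispersion for every gene, no batch effect and changes in the knockout alone. Those settings are simpler than these libraries, so the run does not show how the fit performs on them. Batch numbers pair the libraries by the labels, and deviations of same-numbered libraries from their group means correlated at 0.187 to 0.51. Among libraries of the other groups, each of the 9 libraries correlated best with one of its own number. The fit without the block was the planned one. Positions and lengths come from GENCODE 29 (GRCh38), which matched 16461 genes by identifier, and promoter windows from RefSeq (GRCh38.p14), which had 31 of 41 members. The rule for named genes took SOX11, the ABC members and up to 4 passing genes per partner list. Members and lists were chosen with earlier results of these data known. Some members and partner genes are counted but not reported here. The planned protein comparison was not run, since no protein sequences were used here. Alternatives were the replicate block, filters, log2(CPM + 1) and log2(CPM + 0.25), median centring, prior variances, leaving out 1 library or batch at a time, and fits restricted to the pair of groups in question. Figures were drawn with matplotlib 3.10.9.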

Additional observations from a re-analysis of the deposited data

How the results depend on the processing

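No direction turned in any alternative for the 21 member differences called with or without the replicate block. Leaving out 1 library at a time gave 2 members higher each time and 0 to 2 lower in the knockout against wild type, 2 to 3 higher and 1 to 4 lower in the rescue against the knockout, 1 to 2 higher and 0 lower in the rescue against wild type, and 1 to 3 reversed. The replicate block gave 4, 4, 6, 2, 2 and 7 for members higher in the knockout, higher and lower in the rescue against the knockout, higher and lower in the rescue against wild type, and reversed, and changed no other count by more than 1.5 times. Without batch 1 these were 1 higher and 0 lower in the knockout, 1 higher and 0 lower in the rescue against the knockout, and 0 reversed. Without batch 2, 1 fell in the knockout. Without batch 3, 0 fell in the knockout, 1 rose and 1 fell in the rescue against the knockout, 0 rose against wild type and 1 was reversed. These fits have fewer libraries. The stricter filter, which drops ABCB4, left 1 lower in the knockout and 1 higher in the rescue against the knockout, and median centring gave 5 lower in the rescue against the knockout; the cause was not tested. Among all 11542 genes the block raised the calls from 1470 to 2481 in the knockout and from 470 to 930 in the rescue against wild type. Depth limits the 15 members not tested, for which a count of 0 allows up to 3 reads per library.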
